A study of Mus musculus with 24 samples.

Results

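The genes that mend damaged bases, bulky lesions, mismatched bases and broken ends without copying a sister chromatid were followed across brain, testis and spleen of mice with a mutated Smc6 gene. They were taken from a list of 38 symbols for base excision and single-strand break repair (16 genes), nucleotide excision repair (9), mismatch repair (5), non-homologous end joining (7) and direct reversal (1). The list was matched by symbol, and 36 genes had at least 1 probe, 60 probes in all of the 25697 probes and 16593 genes on the array. No probe carried the symbol Dclre1c or Ercc6. Smc6 forms, with Smc5 and other proteins, a ring-shaped assembly that helps chromosomes through replication and recombination.

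Total RNA from 24 tissue samples was hybridised to 1-colour Illumina bead arrays, 1 array per tissue sample. Brain came from 4 male homozygous Smc6 mutants and 4 wild-type controls, all 19 weeks old. Testis and spleen came from a second set of 8 males, 12 weeks old, with 4 homozygous mutants (labelled -/-) and 4 controls, so that each of these animals gave both tissues and 16 animals were used in all. The controls of the second set are called wild type in the genotype label, but the mouse identifiers mark controls 1 and 2 as +/+ and controls 3 and 4 as +/-. All animals shared the mixed strain background C57BL/6J-129ola-Fvb. Whether the mutation alters the amount of Smc6 transcript is not stated in the labels. The Smc6 probe ILMN_2728385 read 6.31 ± 0.15 in mutant against 6.34 ± 0.06 in control brain, 8.11 ± 0.12 against 8.14 ± 0.15 in testis and 6.42 ± 0.26 against 6.23 ± 0.21 in spleen (log2 intensity, SD, n = 4 per group).

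Base excision repair begins when a glycosylase removes 1 damaged base, after which an endonuclease cuts the strand, a polymerase fills the gap and a ligase seals it. Nucleotide excision repair cuts out a short stretch around a bulky lesion, mismatch repair removes bases that were wrongly paired during replication or recombination, and non-homologous end joining rejoins the 2 ends of a broken chromosome. Testis holds meiotic cells that recombine their chromosomes, spleen holds dividing and antibody-diversifying lymphocytes, and most neurons of the adult brain no longer divide.

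The array's own detection p had to be below 0.05 on 4 or more of a tissue's 8 arrays for a probe to be tested there. By this filter 28 member genes (39 probes) were measured in brain, 29 genes (42 probes) in testis and 28 genes (41 probes) in spleen. In all, 31 genes passed in at least 1 tissue and 26 in all 3. The nucleotide excision helicase Ercc2, the glycosylase Neil3 and the end-binding subunit Xrcc5 were detected on 0 of the 24 arrays, the mismatch repair gene Pms1 on 1 and the glycosylase Neil2 on 2. Signal not well above background on this probe set does not show that the transcripts were missing. Between 12049 and 14234 probes were detected per array. Mutant brain arrays were dimmer than control brain arrays, with an upper quartile of raw intensity of 144.9 to 161.8 against 169.3 to 188.8. Defining markers matched the labels: the median of 6 neuron genes was 11.36 to 11.64 in control brain, that of 6 spermatid genes 12.03 to 12.48 in control testis and that of 5 B-cell genes 10.37 to 10.98 in control spleen (log2 intensity). The spleens of mutants 1 and 2 also carried pancreatic acinar transcripts, with a median over 9 genes of 10.25 and 8.97 against 4.58 and 5.05 in mutants 3 and 4 and 4.45 to 4.66 in the controls. The testis of mutant 1 stood apart on the same genes, at 6.68 against 4.36 to 5.23 in the other mutant testes and 4.47 to 5.08 in the control testes.

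The first comparison asked where each repair gene was expressed in control animals. No member was called above both other tissues in brain, whereas 12 of 31 were in testis and 12 in spleen (limma, Benjamini-Hochberg adjusted p under 0.05 against each other tissue). Among all 11874 genes tested the same calls were made for 27.6% in brain, 25.6% in testis and 27.4% in spleen. By the mean alone, 2 members were highest in brain, 16 in testis and 13 in spleen, where all genes divided 34.5%, 30.5% and 35.0%. A gene that passed the filter only in the tissue where it was high had to differ between tissues. Among the 26 members that passed in all 3 tissues, 0 were called highest in brain, 10 in testis and 10 in spleen, beside 24.4%, 22.7% and 32.2% of all such genes. The spread between tissues was moderate, with a median range of 2.43-fold between the lowest and highest tissue mean for members and 3.45-fold for all genes. Among genes that passed in all 3 tissues these ranges were 3.12-fold and 3.31-fold.

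Taken pair by pair, 0 members were at least 2-fold higher in brain than in testis and 13 were at least 2-fold lower, against a background of 29.4% and 23.9% of all genes. Brain set against spleen gave 2 higher and 10 lower members, with 20.2% and 22.2% for all genes. Testis set against spleen divided the members more evenly, with 8 higher and 9 lower beside 22.2% and 29.5% of all genes. The median difference of the members was -0.47 for brain minus testis, -0.70 for brain minus spleen and 0.15 for testis minus spleen on the log2 scale, and that of all genes 0.16, -0.07 and -0.14. The brain animals were 19 weeks old and the others 12 weeks, so brain and age cannot be told apart. In whole tissue, fewer cells of a type and less RNA per cell cannot be told apart either. Genes of dividing cells were also lowest in brain. The median of 12 such genes was 4.37 to 4.67 in control brain, 6.80 to 6.97 in control testis and 8.40 to 9.48 in control spleen. Between testis and spleen they did not share the members' even division. Of 10 measured, 2 lay above 0 for testis minus spleen, with a median of -0.63. The part of dividing cells in the repair genes' order was not tested.

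**Figure D1:**
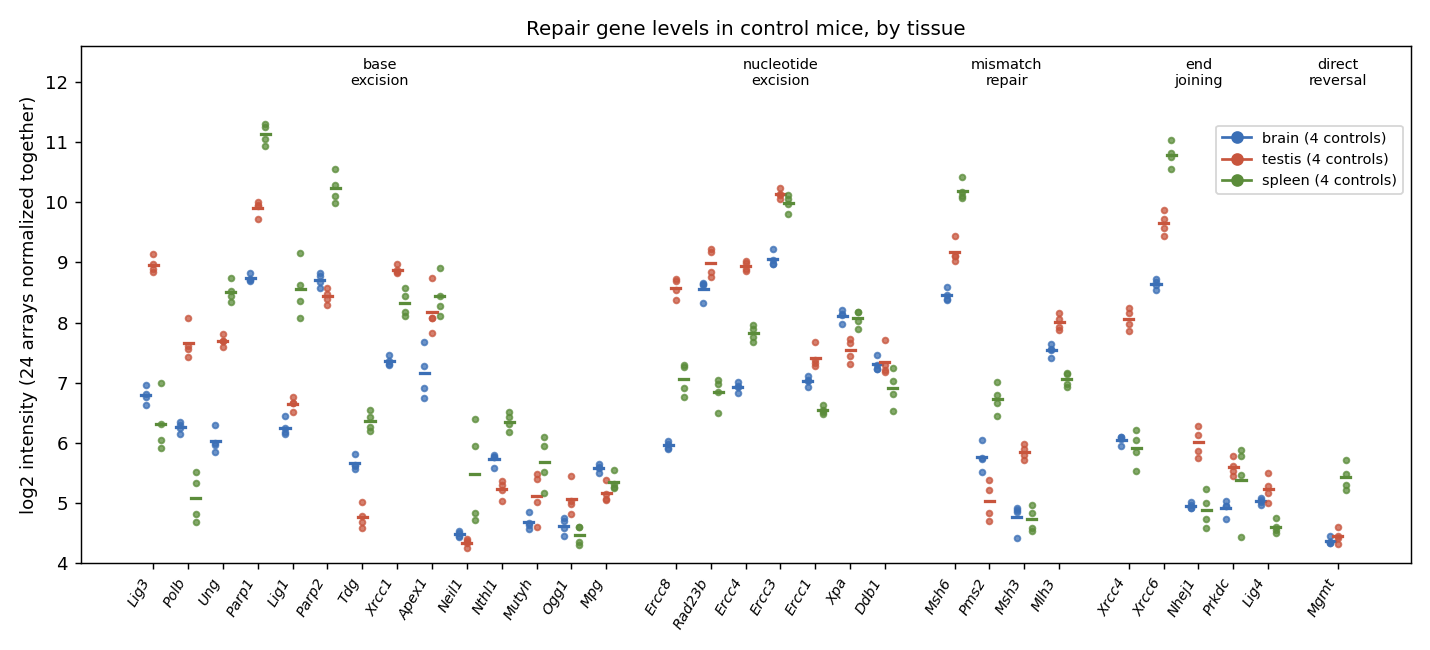
Levels of the 31 measured repair genes in control mice (y axis: log2 intensity of the gene's brightest probe, 24 arrays normalized together; x axis: genes by pathway). Points are single animals, 4 per tissue, and bars are tissue means; brain points sit lowest for genes such as Lig1, Xrcc6 and Msh6, testis points highest for Lig3, Ercc8 and Xrcc4, and spleen points highest for Parp1 and Xrcc6.

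By pathway, the tissue with the highest mean divided as follows, where all genes divided 34.5% in brain, 30.5% in testis and 35.0% in spleen. Of the 14 measured base excision genes, 1 had its highest mean in brain, 4 in testis and 9 in spleen. Of the 7 nucleotide excision genes, 1 was highest in brain, 6 in testis and 0 in spleen. End joining had 0, 4 and 1 of 5 genes, and mismatch repair 0, 2 and 2 of 4. These are counts of few genes, and the difference between pathways was not tested.

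Promoters of 6 members are shown, 3 of genes highest in spleen that hold the word described next and 3 of genes highest in testis that do not. The choice does not stand for all members, as the counts after the sequences show. Each runs from 250 bases before to 50 bases after the start of the gene in RefSeq on GRCm38.p6, read 5′ to 3′ on the gene's strand. Capitals mark a match to any of 4 E2F words (TTTGGCGC, TTTCCCGC, TTTGCCGC or TTTCGCGC, either strand), the short sites bound by factors that switch on genes before DNA replication. The spleen-highest genes are Lig1 at chr7:13278576-13278875 (plus strand), Msh6 at chr17:87974800-87975099 (plus) and Xrcc6 at chr15:82016119-82016418 (plus). The testis-highest genes are Lig3 at chr11:82780859-82781158 (plus), Ercc8 at chr13:108158488-108158787 (plus) and Xrcc4 at chr13:90089559-90089858 (minus).
Lig1: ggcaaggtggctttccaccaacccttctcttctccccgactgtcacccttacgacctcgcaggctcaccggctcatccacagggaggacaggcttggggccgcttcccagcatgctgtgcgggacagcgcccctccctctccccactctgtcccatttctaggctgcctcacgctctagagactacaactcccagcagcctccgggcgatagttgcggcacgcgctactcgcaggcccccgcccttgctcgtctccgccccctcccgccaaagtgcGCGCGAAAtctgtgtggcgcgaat
Msh6: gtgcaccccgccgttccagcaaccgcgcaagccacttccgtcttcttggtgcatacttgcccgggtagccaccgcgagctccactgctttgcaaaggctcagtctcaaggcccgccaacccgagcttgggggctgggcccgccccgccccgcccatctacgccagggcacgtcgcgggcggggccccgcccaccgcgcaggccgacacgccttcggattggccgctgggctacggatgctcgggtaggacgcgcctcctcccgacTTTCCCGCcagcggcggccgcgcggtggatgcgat
Xrcc6: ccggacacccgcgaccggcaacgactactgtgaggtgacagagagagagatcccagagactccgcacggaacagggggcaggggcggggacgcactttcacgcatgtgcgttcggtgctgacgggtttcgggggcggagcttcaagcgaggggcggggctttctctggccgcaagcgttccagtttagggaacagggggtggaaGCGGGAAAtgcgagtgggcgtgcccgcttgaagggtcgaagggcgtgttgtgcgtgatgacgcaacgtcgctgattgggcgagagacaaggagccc
Lig3: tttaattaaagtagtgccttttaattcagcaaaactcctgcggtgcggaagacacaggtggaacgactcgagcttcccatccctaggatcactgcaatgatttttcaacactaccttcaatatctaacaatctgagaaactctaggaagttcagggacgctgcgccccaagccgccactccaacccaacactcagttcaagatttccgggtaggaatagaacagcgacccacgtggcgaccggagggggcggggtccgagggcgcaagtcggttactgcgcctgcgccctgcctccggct
Ercc8: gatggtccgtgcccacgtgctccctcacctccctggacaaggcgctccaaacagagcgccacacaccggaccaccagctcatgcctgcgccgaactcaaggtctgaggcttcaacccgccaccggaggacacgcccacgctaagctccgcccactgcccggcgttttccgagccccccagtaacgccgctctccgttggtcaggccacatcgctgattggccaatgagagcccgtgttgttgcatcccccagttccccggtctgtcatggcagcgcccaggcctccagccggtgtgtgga
Xrcc4: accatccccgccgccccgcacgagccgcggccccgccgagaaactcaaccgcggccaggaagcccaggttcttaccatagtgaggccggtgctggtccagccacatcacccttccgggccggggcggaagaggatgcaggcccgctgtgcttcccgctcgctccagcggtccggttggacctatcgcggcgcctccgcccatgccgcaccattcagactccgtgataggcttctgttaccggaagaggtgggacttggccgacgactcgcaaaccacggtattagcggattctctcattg
Promoters were found for 34 of the 38 listed genes, 40 promoters in all. An E2F word was present in 5 of the 40 (12.5%) and in 2.26% of 32851 mouse promoters of the same length. The 5 genes were Lig1, Msh3, Msh6, Nthl1 and Xrcc6, of which 4 had their highest mean in spleen and Msh3, whose promoter holds 2 matches, in testis. Thus 4 of the 13 members highest in spleen and 1 of the 16 highest in testis were found to hold such a word. The 4 listed genes without a promoter could not be searched, and the totals of 13 and 16 were not reduced for them. Relative to the start, the match began at base 26 in Lig1 (opposite strand), at base 15 in Msh6 (same strand) and at base -46 in Xrcc6 (opposite strand). The GC box GGGCGG occurred in 28 of the 40 promoters (70%, against 35.7% of all), the word CCAAT in 21 (52.5% against 37.4%), the ETS word CCGGAAGT in 5 (12.5% against 3.89%) and the cAMP response element TGACGTCA in 1, that of Tdg (2.5% against 1.79%), each on either strand. A match to these letters is a description of the sequence and was not tested as a binding site.

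Among base excision genes the 2 DNA ligases stood in different tissues. Lig3, the ligase that seals single-strand breaks with Xrcc1 and also serves mitochondria, read 6.81, 6.96, 6.77 and 6.62 in the 4 control brains, 8.85, 8.89, 9.14 and 8.98 in the testes and 5.92, 6.05, 7.00 and 6.32 in the spleens (log2 intensity). Every testis lay above every brain and spleen, and the brain minus testis difference was -2.17 (SE 0.15, limma adjusted p 6.71e-13). Lig1, the ligase that joins Okazaki fragments during replication, read 6.45, 6.25, 6.15 and 6.18 in brain, 6.77, 6.66, 6.66 and 6.52 in testis and 8.08, 8.63, 8.36 and 9.16 in spleen. All 4 spleens were above the other 8 arrays, with a brain minus spleen difference of -2.30 (SE 0.19, adjusted p 5.00e-11), and brain and testis did not pass the test against each other (adjusted p 0.0585). The dim Lig1 probe ILMN_1213101 did not share this order, with 4.71 in brain, 4.49 in testis and 4.55 in spleen, and no pair of tissues passed the test on it.

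Polb, the polymerase that fills the gap left by base excision, followed the Lig3 order, with 6.34, 6.15, 6.29 and 6.25 in brain, 7.56, 7.61, 8.08 and 7.42 in testis and 4.68, 5.52, 5.33 and 4.82 in spleen. The 3 tissues did not overlap, although the probe was detected on only 2 of the 4 control spleens. Its testis minus spleen difference was 2.58 (SE 0.19, adjusted p 5.75e-12). Xrcc1, the scaffold that holds Lig3 at a break, also had its highest mean in testis, with 7.36 in brain, 8.88 in testis and 8.33 in spleen.

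Ung, the glycosylase that removes uracil and takes part in antibody diversification, read 6.01, 5.96, 5.85 and 6.29 in brain, 7.59, 7.81, 7.69 and 7.70 in testis and 8.34, 8.74, 8.45 and 8.53 in spleen. The tissues did not overlap, and testis minus spleen was -0.82 (SE 0.09, adjusted p 1.98e-08). Parp1, the enzyme that senses strand breaks and builds poly(ADP-ribose) on proteins there, read 8.69, 8.72, 8.70 and 8.83 in brain, 9.72, 10.00, 9.95 and 9.95 in testis and 11.31, 10.94, 11.25 and 11.05 in spleen on probe ILMN_2971744, a 5.28-fold range. The much dimmer probe ILMN_1222228 of the same gene gave another order, with means of 4.87 in brain, 6.71 in testis and 5.54 in spleen. The related Parp2 read 8.68, 8.77, 8.82 and 8.58 in brain, 8.57, 8.48, 8.30 and 8.39 in testis and 10.11, 9.99, 10.56 and 10.29 in spleen, so that spleen was again the highest tissue with no overlap.

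The other glycosylases were dim and spread less. Tdg, which removes thymine and its oxidised relatives opposite guanine, had means of 5.66 in brain, 4.77 in testis and 6.36 in spleen. Nthl1, which removes oxidised pyrimidines, had 5.73, 5.23 and 6.35 in the same order, and Mutyh, which removes adenine opposite oxidised guanine, 4.68, 5.13 and 5.68. Mpg, which removes alkylated purines, had its highest mean in brain at 5.58, with 5.16 in testis and 5.35 in spleen, and brain and spleen were not separated (adjusted p 0.0704). Ogg1, which removes oxidised guanine, was called highest in testis, with 4.62 in brain, 5.07 in testis and 4.47 in spleen, where no control array detected it. Ogg1 passed the filter only in testis, so it had to differ between tissues and the call adds no support. Neil1 was detected on 2 of 4 control spleens and averaged 5.48 ± 0.82 there (SD, n = 4). The endonuclease Apex1, which cuts at the site a glycosylase leaves, had 7.15 in brain, 8.18 in testis and 8.44 in spleen, and testis and spleen were not separated (adjusted p 0.461). The dimmer Apex1 probe ILMN_2918114 gave another order, with 5.65 in brain, 5.43 in testis and 5.49 in spleen, and no pair of tissues passed the test on it.

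Of the 7 measured nucleotide excision members, 6 had their highest mean in testis, and 4 were called above both other tissues there. Over all genes these shares were 30.5% and 25.6%. Nucleotide excision genes outside the member list did not share this lean. Of 15 measured, 5 lay above 0 for testis minus spleen (median -0.33), where 43.0% of all genes did. Ercc8, the Cockayne syndrome protein CSA that acts where RNA polymerase has stalled, read 6.03, 5.91, 5.90 and 5.99 in brain, 8.69, 8.72, 8.38 and 8.55 in testis and 6.76, 6.91, 7.30 and 7.26 in spleen. The brain minus testis difference was -2.62 (SE 0.13, adjusted p 5.49e-16), and the second Ercc8 probe gave -2.59 (SE 0.10). Ercc4, the catalytic subunit of the nuclease that cuts on the 5′ side of a lesion, read 7.01, 6.83, 6.93 and 6.94 in brain, 8.87, 8.98, 9.02 and 8.90 in testis and 7.69, 7.95, 7.77 and 7.90 in spleen, again without overlap.

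Rad23b, a partner of the damage sensor Xpc, had another profile, with 8.63, 8.65, 8.64 and 8.32 in brain, 9.17, 8.76, 9.22 and 8.83 in testis and 7.04, 6.50, 6.98 and 6.85 in spleen. Brain was closer to testis than to spleen, with a brain minus testis difference of -0.44 (SE 0.15, adjusted p 0.00868) and a brain minus spleen difference of 1.72 (SE 0.15, adjusted p 1.01e-10). Ercc1, the partner of Ercc4, had means of 7.03, 7.42 and 6.54 in brain, testis and spleen. The helicase Ercc3 had 9.06, 10.14 and 9.99, and testis and spleen were not separated (adjusted p 0.129). The dimmer Ercc3 probe ILMN_1218154 did not overlap between them. It read 7.77, 7.80, 8.15 and 7.94 in control testes and 7.69, 7.22, 7.33 and 7.37 in control spleens. Xpa, which checks the lesion, had 8.12, 7.54 and 8.07 with brain and spleen not separated (adjusted p 0.709), and the damage-binding Ddb1 had 7.31, 7.35 and 6.91 with brain and testis not separated (adjusted p 0.798).

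In mismatch repair, Msh6 and Msh3 stood in different tissues. Msh6, which recognises single mismatches, read 8.59, 8.47, 8.37 and 8.39 in brain, 9.45, 9.11, 9.03 and 9.11 in testis and 10.07, 10.17, 10.10 and 10.43 in spleen, and the brain minus spleen difference was -1.74 (SE 0.10, adjusted p 2.90e-14). Msh3, which recognises larger loops, read 4.89, 4.86, 4.91 and 4.41 in brain, 5.72, 5.90, 5.98 and 5.80 in testis and 4.96, 4.84, 4.59 and 4.54 in spleen. Only the testes stood apart, brain and spleen were not separated (adjusted p 0.853), and the probe was detected on 1 of 4 control spleens. Pms2, a mismatch repair endonuclease, read 6.05, 5.75, 5.73 and 5.52 in brain, 5.22, 5.38, 4.83 and 4.71 in testis and 6.80, 7.01, 6.45 and 6.66 in spleen, with testis lowest. Mlh3, known for its part in meiotic crossovers in mouse, had means of 7.54, 8.01 and 7.06 in brain, testis and spleen.

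For end joining, Xrcc4, the scaffold of the ligase that seals the ends, read 6.07, 6.10, 5.95 and 6.10 in brain, 8.24, 7.86, 7.98 and 8.17 in testis and 6.05, 5.85, 6.21 and 5.54 in spleen. Brain minus testis was -2.01 (SE 0.14, adjusted p 6.45e-13), and brain and spleen were not separated (adjusted p 0.349). Nhej1, also called XLF and built much like Xrcc4, was also highest in testis at a lower signal, with 5.01, 4.96, 4.92 and 4.91 in brain, 6.28, 5.86, 6.14 and 5.75 in testis and 4.58, 5.00, 4.74 and 5.23 in spleen. It was detected on 2 of 4 control spleens, and brain and spleen were not separated (adjusted p 0.764). Xrcc6, the Ku70 subunit that binds broken ends, instead had its highest readings in spleen, with 8.68, 8.62, 8.54 and 8.73 in brain, 9.43, 9.87, 9.58 and 9.72 in testis and 10.55, 10.82, 10.75 and 11.04 in spleen. Its 2 dimmer probes did not repeat the step between testis and spleen (adjusted p 0.183 and 0.156), while both had brain lowest. The dimmest, ILMN_1216412, had the higher mean in testis, with 5.73, 6.35, 6.55 and 6.24 there and 5.61, 5.98, 5.69 and 6.34 in spleen. No control brain detected that probe. Prkdc, the kinase that joins Ku at the ends, had means of 4.92, 5.60 and 5.39, and Lig4, the ligase itself, 5.03, 5.23 and 4.60 in brain, testis and spleen. Lig4 was not detected on any control spleen.

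Mgmt, which takes alkyl groups off guanine in a single step, was detected on control arrays of spleen only. It read 4.34, 4.35, 4.34 and 4.45 in brain and 4.45, 4.32, 4.42 and 4.60 in testis, where no array was well above background, and 5.22, 5.71, 5.30 and 5.49 in spleen. Against the dimmest signal called detected, spleen was at least 1.71-fold above brain and at least 1.58-fold above testis. The readings themselves differed by 1.06 from brain (limma adjusted p 5.64e-08) and by 0.98 from testis (adjusted p 1.60e-07) on the log2 scale. Mgmt passed the filter only in spleen, so it had to differ between tissues and these p-values add no support. With intensities floored at 16 and quantile normalized, brain minus spleen and testis minus spleen were each -0.27 (log2), so that spleen was still highest, but neither was called (adjusted p 0.296 and 0.293).

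Further genes of the same pathways were taken from a separate list. Of 12 measured further base excision and single-strand break genes, 1 was at least 2-fold higher and 6 at least 2-fold lower in brain than in testis, and 0 were higher and 8 lower in brain than in spleen. Over all genes the shares were 29.4% higher and 23.9% lower against testis, and 20.2% and 22.2% against spleen. The counts were 1 and 2 of 15 nucleotide excision genes against testis, and 1 and 5 against spleen. Mismatch repair had 0 and 3 of 5 against testis and 0 and 4 against spleen. End joining had 0 and 1 of 7 against testis and 1 and 1 against spleen. For brain minus testis, 5 of these 7 genes lay above 0, where 55.3% of all genes did. Pold1, the catalytic subunit of the lagging-strand polymerase, differed by -3.95 (SE 0.18) for brain minus spleen. Poll, a gap-filling polymerase of end joining and base excision, differed by -2.77 (SE 0.12) for brain minus testis. Aptx, which clears abortive ligation products, differed by 3.33 (SE 0.12) for testis minus spleen, and Parp3, a break-sensing relative of Parp1, by -3.21 (SE 0.17). Gtf2h5, the smallest subunit of the repair and transcription factor TFIIH, went the other way, with 2.79 for brain minus testis and 2.77 for brain minus spleen (SE 0.11 each).

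The tissue order was nearly the same between the mutant groups. The highest tissue was the same for 30 of 31 members, the exception being Xpa, whose brain and spleen means were already close in controls. All 24 members called above both other tissues in controls were called in the same tissue in mutants.

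The second comparison asked whether the Smc6 mutation changed these genes. No member probe passed an adjusted p of 0.05 in any tissue (limma on each tissue normalized by itself), 0 of 39 in brain, 0 of 42 in testis and 0 of 41 in spleen, against a background of 0.0285% of 14027 probes in brain, 0% of 13152 in testis and 0% of 12449 in spleen. At an unadjusted p under 0.05 there were 7 member probes in brain, 2 in testis and 1 in spleen, where 11.8%, 4.78% and 1.74% of all probes lay. The 95% interval of the mutant minus control difference stayed within 1.5-fold for 36 of 39 member probes in brain, 39 of 42 in testis and 32 of 41 in spleen (95.6%, 96.8% and 82.5% of all probes). The median difference over member genes was -0.07 in brain, -0.02 in testis and -0.03 in spleen, with -0.01, 0.00 and -0.01 for all genes. Shared litters or joint processing of animals are not stated in the labels, and p-values speak only of the spread among these animals.

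**Figure D2:**
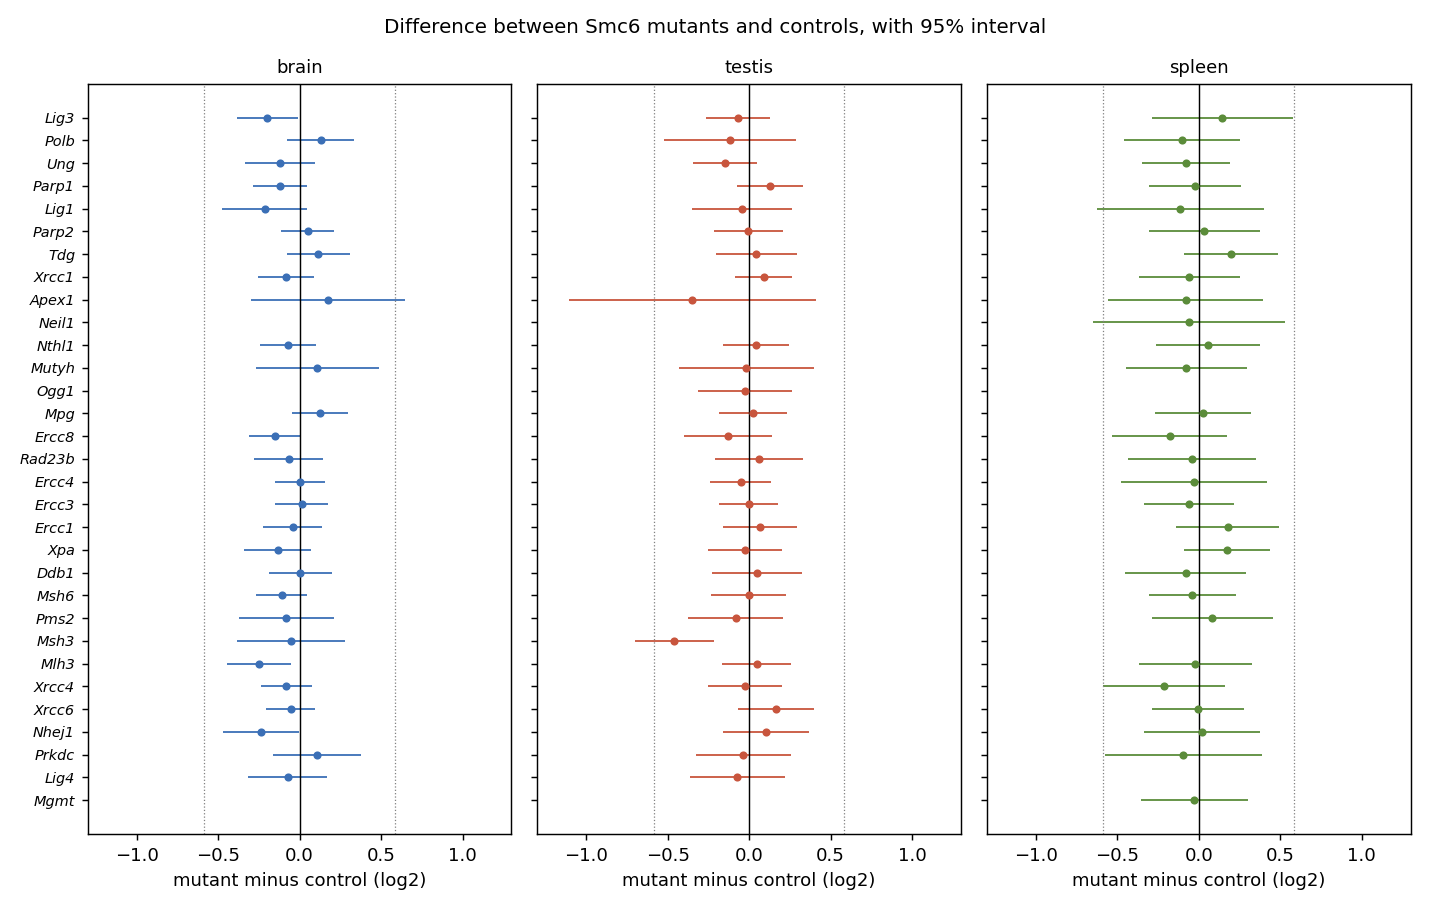
Mutant minus control difference of each measured member gene in brain, testis and spleen (x axis: log2 difference of the brightest probe; y axis: genes; points with 95% intervals from limma, 4 animals per group; dotted lines mark a 1.5-fold change). Most intervals cross 0, and the testis interval of Msh3, -0.70 to -0.22, lies farthest from it; a gene without a point did not pass the filter in that tissue.

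By pathway, the brain median was -0.01 for base excision (6 of 12 genes above 0), -0.04 for nucleotide excision (3 of 7), -0.10 for mismatch repair (0 of 4) and -0.07 for end joining (1 of 5). In testis the medians were -0.02, -0.00, -0.04 and -0.02, and in spleen -0.06, -0.04, -0.02 and -0.05. In brain, 10 of 28 member genes lay above 0, where 45.5% of all genes did. Of the further list, 0 genes were called in any tissue. Examples with an unadjusted p under 0.05 were Pole, a replicative polymerase, at -0.27 (SE 0.11) in testis, the oxidative demethylase Alkbh2 at -0.46 (SE 0.16) in spleen and Ddb2, a damage sensor of nucleotide excision, at 0.22 (SE 0.08) in brain.

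The 7 brain probes with an unadjusted p under 0.05 did not point one way. Cell-type markers also differed between the mutant and control brains. With all arrays normalized together, the median of the 6 neuron genes was 10.97 to 11.26 in mutants against 11.36 to 11.64 in controls. Only 4 of these genes passed the filter in brain, and their mutant minus control differences were mixed. With brain normalized by itself, 1 lay above 0 and 3 below (median -0.16, range -0.36 to 0.23). An unadjusted p under 0.05 was reached by 2 of them, and 0 were called. All 5 choroid plexus genes had a mutant minus control difference above 0 (median 0.34, 3 with an unadjusted p under 0.05, 0 called). Their part in the repair genes' differences was not tested. Mlh3 read 7.81, 7.75, 7.95 and 7.60 in mutant brain against 8.05, 8.03, 8.14 and 7.91 in control brain, a difference of -0.25 (SE 0.09, limma adjusted p 0.296). Mutant 3 lay above control 4, and the groups overlapped only there. Msh6 (ILMN_2631097) read 8.78, 8.51, 8.62 and 8.77 in mutants against 9.02, 8.90, 8.80 and 8.82 in controls, a difference of -0.22 (SE 0.09, adjusted p 0.346). Its mutants and controls did not overlap, which in brain also held for Ercc8 on ILMN_2600315 (6.27 ± 0.08 against 6.43 ± 0.07, n = 4 per group), 2 of 39 member probes beside 6.66% of all. The second Msh6 probe gave a difference of -0.11. The Ercc8 probe ILMN_2719001 gave -0.02 with overlapping groups.

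Lig3 read 7.17, 7.14, 7.01 and 7.07 in mutant brain against 7.32, 7.46, 7.27 and 7.12 in control brain, a difference of -0.20 (SE 0.08, adjusted p 0.392) with control 4 among the mutants. Nhej1 read 5.26, 4.80, 4.82 and 5.11 in mutants against 5.30, 5.25, 5.18 and 5.17 in controls, a difference of -0.23 (SE 0.11, adjusted p 0.421), with mutant 1 among the controls. With array brightness as a covariate these 2 differences were 0.01 and 0.14. Brightness did not overlap between mutant and control brains, so that it and genotype cannot be told apart by this fit.

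A further 3 brain probes were higher in mutants on average. The Parp1 probe ILMN_1222228 read 5.21, 5.47, 5.42 and 5.29 in mutant brain against 5.03, 5.16, 5.04 and 5.24 in control brain, a difference of 0.23 (SE 0.08, adjusted p 0.303), while the 2 brighter Parp1 probes gave -0.12 and -0.07. Lig1 on the dim probe ILMN_1213101 read 5.10, 5.07, 5.19 and 5.08 in mutants against 4.83, 4.80, 4.78 and 5.16 in controls, a difference of 0.22 (SE 0.09, adjusted p 0.393), where its brightest probe gave -0.21. Parp2 on ILMN_2598576 had the widest difference of the 7, 0.62 (SE 0.26, 95% interval 0.04 to 1.19, adjusted p 0.386), while its other probe gave 0.05. In each of these genes another probe did not share the difference.

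**Figure D3:**
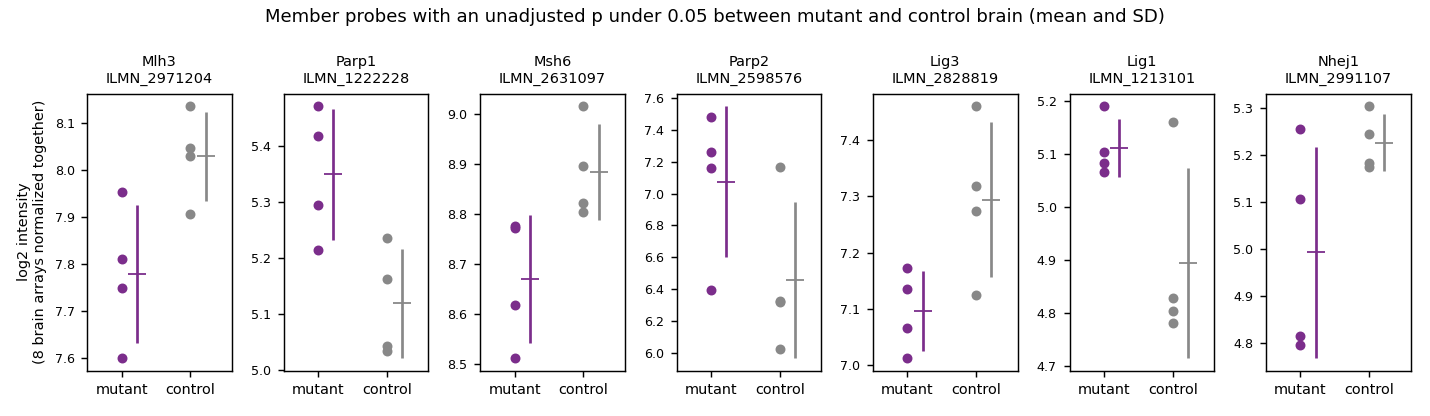
The 7 member probes with an unadjusted p under 0.05 in brain (y axis: log2 intensity, 8 brain arrays normalized together, with its own range in each panel; x axis: group). Points are the 4 mutant and the 4 control animals, with mean and SD beside them; only for Msh6 do the groups not overlap, and no adjusted p is under 0.296.

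In testis, Msh3 on ILMN_3068452 read 5.20, 5.52, 5.40 and 5.05 in mutants against 5.63, 5.80, 5.88 and 5.70 in controls. The groups did not overlap, with a difference of -0.46 (SE 0.11, 95% interval -0.70 to -0.22, limma adjusted p 0.831), 1 of 42 member probes beside 2.71% of all. The other Msh3 probe, ILMN_2738726, gave 0.18 (SE 0.15), in the opposite direction. Parp1 on ILMN_2621385 read 9.45, 9.25, 9.45 and 9.38 in mutants against 9.27, 9.06, 9.19 and 9.21 in controls, a difference of 0.20 (SE 0.09, adjusted p 1.00). The brightest Parp1 probe, ILMN_2971744, gave 0.13, and ILMN_1222228 gave -0.09, in the opposite direction.

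In spleen, 0 of 41 member probes had groups without overlap, where 1.33% of all probes did. The dim Apex1 probe ILMN_2918114 read 4.48, 5.11, 4.51 and 4.47 in mutants against 5.14, 4.88, 5.25 and 4.87 in controls, a difference of -0.39 (SE 0.17, adjusted p 1). The brighter Apex1 probe gave -0.08. Mutants 1 and 2, whose spleens carried pancreatic transcripts, were at 4.48 and 5.11, and 0 member probes were called without them.

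The third comparison asked whether the mutant minus control difference itself differed between tissues. No member probe passed, against backgrounds of 0.00941% for brain against testis, 0% for brain against spleen and 0.0097% for testis against spleen. At an unadjusted p under 0.05 there were 2 member probes for brain against testis and 2 for brain against spleen, beside 4.89% and 3.81% of all probes, and 0 for testis against spleen beside 3.9%. Parp2 on ILMN_2598576 was in both, with 0.62 in brain, -0.39 in testis and -0.37 in spleen. Its difference of differences was 1.01 (SE 0.46, limma adjusted p 0.975) against testis and 0.99 (SE 0.46, adjusted p 0.998) against spleen. The others were Parp1 on ILMN_2621385, with -0.07 in brain and 0.20 in testis, and Xpa, with -0.13 in brain and 0.17 in spleen (adjusted p 0.987 and 0.998). In brain and testis the Parp1 probe ILMN_2971744 gave -0.12 and 0.13, while ILMN_1222228 gave 0.23 and -0.09.

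The same Parp2 probe and a probe of Apex1 varied widely between animals of 1 group, a pattern picked out after the values were seen. Parp2 on ILMN_2598576 read 7.48, 6.39, 7.16 and 7.26 in mutant brain against 7.16, 6.02, 6.33 and 6.32 in control brain, 5.24, 6.60, 6.46 and 6.33 against 6.46, 6.40, 7.17 and 6.19 in testis, and 5.98, 7.62, 6.70 and 6.52 against 6.88, 6.72, 7.75 and 6.95 in spleen. Apex1 on ILMN_2776952 read 8.01, 7.26, 7.95 and 8.08 in mutant brain against 8.17, 7.25, 7.42 and 7.77 in control brain, 6.58, 8.64, 7.96 and 8.02 against 8.04, 8.03, 8.75 and 7.78 in testis, and 7.33, 8.24, 7.84 and 7.57 against 7.67, 7.83, 8.30 and 7.50 in spleen. In both testis and spleen, mutant 1 was the lowest animal for both genes and control 3 the highest. Mutant 1 is also the animal whose testis and spleen both carried pancreatic transcripts. Across the 8 arrays of a tissue the 2 probes correlated at 0.880 in brain, 0.964 in testis and 0.894 in spleen (Pearson, given as a description), and without mutant 1 at 0.875 in testis and 0.850 in spleen. The dimmer Apex1 probe ILMN_2918114 correlated with the Parp2 probe at -0.757 in brain, 0.608 in testis and 0.838 in spleen.

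**Figure D4:**
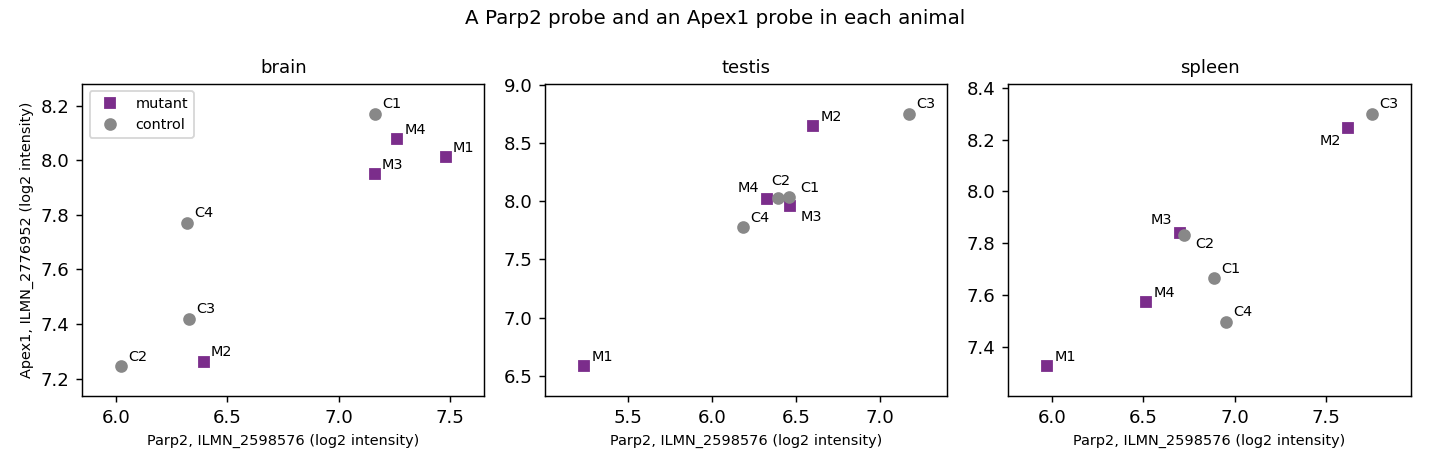
The Apex1 probe ILMN_2776952 (y axis, log2 intensity) against the Parp2 probe ILMN_2598576 (x axis, log2 intensity) in brain, testis and spleen, each tissue normalized by itself. Squares are mutants (M1 to M4) and circles controls (C1 to C4); in testis and spleen, which share animals, M1 is lowest and C3 highest on both axes.

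Since each of 8 animals gave a testis and a spleen, each of the 37 member probes measured in both tissues could be compared between them. Apex1 on ILMN_2776952 correlated at 0.873 between testis and spleen (exact permutation p 0.000843, n = 8 animals), with a Spearman rho of 0.833 (exact permutation p 0.0154). Without the 2 animals farthest from the testis median the correlation was 0.905. Parp2 on ILMN_2598576 correlated at 0.865 (exact permutation p 0.00424), with a rho of 0.690 (exact permutation p 0.0694). Without the 2 farthest animals it was 0.556, so this relation rests on them. Without mutant 1, a setting chosen after the values were seen, the correlation was 0.943 for Apex1 and 0.783 for Parp2 over 7 animals, and without mutants 1 and 2 it was 0.918 and 0.867 over 6. After adjustment over all 10312 probes measured in both tissues neither passed (adjusted p 0.764 for each Pearson correlation, 0.888 and 0.959 for rho), and 0 of the 10312 did. Of these probes, 0.204% had a higher correlation than the Apex1 probe and 0.291% a higher one than the Parp2 probe. The next smallest Pearson p among the 37 member probes went the other way. Parp1 on ILMN_2971744 correlated at -0.741 (exact permutation p 0.0145, adjusted p 0.851), with a rho of -0.75 (exact permutation p 0.0377).

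Parp2 and Apex1 lie close together on mouse chromosome 14, with 3 protein-coding genes between them. The other Parp2 probe, ILMN_1226731, correlated at -0.484 between the testis and spleen of the same animals. The other Apex1 probe, ILMN_2918114, correlated at 0.341, and at -0.133 without mutant 1. Within 10 protein-coding genes on either side, probes of other genes were measured 6 times in testis, 6 in spleen and 9 in brain. Of these, 1, 2 and 2 correlated with the Parp2 probe above 0.8, and the rest lay between -0.694 and 0.620 in testis, 0.073 and 0.694 in spleen and -0.839 and 0.004 in brain. The high ones were Ttc5 on ILMN_3013144 in testis (0.853) and spleen (0.937), but not in brain (-0.003), another Ttc5 probe, ILMN_1241957, in brain (0.859), and Ang in spleen (0.952) and brain (0.960). The Ang probe did not pass the filter in testis. The mixed strain background and any shared handling of 1 animal's tissues move with animal identity, and their part was not tested.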

How the data were processed

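The authors deposited 1 table of probe intensities on a linear scale with a detection p-value for each of 24 arrays, made with GenomeStudio 2011.1 per the submitters' processing notes. Their second deposited table held normalized intensities whose method is not given in the sources used here, and served as an alternative. All 24 columns were mapped from their names to the labelled samples. Background was corrected and arrays were quantile normalized with neqc in limma 3.58.1 (R 4.3.3), for each tissue by itself for mutant minus control differences and for all 24 arrays together for tissue levels, and values are log2 intensity. Arrays give no read depth, so the number of animals limits the precision. Probes with a detection p under 0.05 on at least 4 of 8 arrays of a tissue were tested with lmFit and eBayes, and p-values were adjusted by Benjamini-Hochberg over all such probes, with 0.05 as the threshold. A gene was represented by its brightest probe that passed, and other probes are given for several of the genes where they disagree. Standard errors are those of the limma fit.

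Mutant and control replicate numbers name different animals and pair nothing, while testis and spleen are paired through the mouse identifiers in the labels, and the animal was entered as a random block in an alternative. The members and all lists were chosen with earlier results of these data known. Genes were named if called, if their unadjusted p was under 0.05 in a mutant comparison, or if they were among the 3 of their pathway with the widest range between control tissues; other members are given by means. Genes of the further list are examples from those with the smallest p-values. The steps were tested on simulated data. Promoters came from RefSeq on GRCm38.p6, and no probe sequences were used here.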

Additional observations from a re-analysis of the deposited data

Results flagged for a closer look

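Of 69 groups of 4 arrays looked at, 6 held 1 array whose gap to the nearest other array was above the 95% critical value of Dixon's test for 4 samples, which chance gives in about 1 of 20 groups. In brain control 4, 4 probes stood apart. Lig1 on ILMN_1213101 read 5.1608 there against 4.7816 to 4.8293 in the other 3 control brains. Msh3 on ILMN_3068452 read 4.412 against 4.8575 to 4.9126, Rad23b 8.3192 against 8.6317 to 8.6544, and Mgmt, below detection, 4.4541 against 4.3354 to 4.3523. Apex1 on ILMN_2776952 read 7.2609 in brain mutant 2 against 7.9494 to 8.0771 in the other mutant brains. Apex1 on ILMN_2918114 read 5.1079 in spleen mutant 2, 1 of the 2 spleens with pancreatic transcripts, against 4.4686 to 4.5086 in the other mutant spleens.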

How the results depend on the processing

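No member probe was called between mutants and controls, or between mutant effects, under any alternative run, among them the deposited normalized table, another background correction, no filter, +/+ controls only, spleen mutants 1 and 2 left out, and each animal left out in turn (0 to 0 calls). With array brightness as a covariate, the brain differences of Lig3 and Nhej1 turned to 0.012048 and 0.14186, where brightness and genotype cannot be told apart. A fit with the replicate number as a block, although mutants and controls share only a number, also called 0 member probes in each tissue, and same-numbered deviations correlated at -0.378 to 0.278. With the animal as a replicate block, the member genes called at least 2-fold stayed at 17 for testis minus spleen and 13 for brain minus testis.

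Testis minus spleen gave 11 genes in place of 17 where detection was required on all 8 arrays of both tissues, since only 20 genes were then tested. Leaving out 1 animal gave 16 to 17 genes for testis minus spleen, 11 to 13 for brain minus testis and 11 to 14 for brain minus spleen. Members called highest in brain numbered 1 in place of 0 after a floor of 16 with quantile normalization, after normalization within each tissue, and between the mutant groups, which was Mpg, Xpa and Mpg in that order. The highest tissue was the same for 30 or 31 of 31 genes under these alternatives, and 21 to 24 of the 24 called genes stayed called in the same tissue. The brain minus spleen differences near 0 changed sign. That of Nhej1 (0.06) was -0.31529 after normalization within each tissue, -0.1275 between the mutant groups and between -0.040536 (without spleen control 1) and 0.1743 with 1 animal left out. That of Msh3 (0.04) was -0.47526 and -0.21202 under the first 2 of these, and -0.01252, -0.028519, -0.0060241 and -0.012913 without spleen control 3, spleen control 4, brain control 1 and brain control 3, up to 0.15395 without brain control 4. Arrays of 4 animals per group, and signals near background for genes such as Msh3, Neil1 and Mgmt, limit what can be separated.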
